A study of Mus musculus with 6 samples.

Results

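The non-collagen matrix of the left ventricle was followed through 41 genes for glycoproteins and proteoglycans, of 55487 genes in the deposited tables. The members were taken by gene symbol from a fixed list, each symbol matched exactly 1 gene, and all 41 had enough counts to be tested. The samples were left ventricles of male C57BL/6 wild-type mice, 8 weeks old at feeding. ET mice received a 5% ethanol diet for 10 days and a single ethanol gavage, and their labels give the disease state alcoholic cardiomyopathy. CONT mice received an isocaloric control diet over the same days and a maltose-dextrin gavage, and tissue of both groups was collected 9 h after it. Each group had 3 libraries. Whether every library came from its own mouse is not stated, so the p-values speak of the spread among these libraries alone, and that spread may be technical.

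Fibroblasts, smooth muscle, endothelium and cardiomyocytes surround themselves with a network in which collagens are only a part. Fibronectin, periostin and the SPARC family bind cells and collagen, fibrillins, fibulins and elastin build the elastic fibres that let vessel and valve walls recoil, and latent TGF-beta binding proteins anchor the growth factor in those fibres. Decorin, biglycan and their relatives are small leucine-rich proteoglycans that bind collagen fibrils, and laminins, nidogens, perlecan and agrin form the basement membrane around each muscle cell and capillary. In the heart many of these genes are known as products of activated fibroblasts after injury.

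Depth ran from 28838386 to 37762233 expected counts per library, which are estimated read counts per gene. One ethanol library, ET replicate 1, stood apart in cell type markers, and CONT replicate 3 shared part of this. Summed over 7 atrial markers, the level was 14725 TPM (a transcript level scaled for gene length and library depth) in ET replicate 1, 2182 in CONT replicate 3 and between 100.1 and 490.7 in the other 4 libraries. The 9 mesothelial and epicardial markers summed to 113 TPM in ET replicate 1 against 3.28 to 14.05 elsewhere, and the 4 valve markers to 82.5 against 7.41 to 20.2. Nppa alone gave 8200 TPM of the atrial sum in ET replicate 1. The atrial marker Bmp10 went the other way, with 24.9 TPM in CONT replicate 3 and 0.01 in ET replicate 1. Of the defining markers, Bmp10 (atrial) and Bnc1 and Muc16 (mesothelial) were listed at 0 in at least 1 library. The 8 cardiomyocyte markers, of which Nppa is also an atrial marker, summed to 43942, 46463 and 46837 TPM in CONT and 41512, 41986 and 33996 in ET. In ET replicate 1 this sum also holds the 8200 TPM of Nppa. There the cardiomyocyte markers stood at a median of 0.608 times the other 5 libraries. ET replicate 3 had the most neutrophil RNA (4 markers, 92.2 TPM against 1.44 to 16.6) and hepatocyte RNA (5 markers, 53.1 TPM against 0.73 to 5.83), with Mmp8 and Serpina1a listed at 0 in at least 1 library. Estimated gene lengths also divided the libraries across the groups into set 1 (CONT replicates 1 and 2, ET replicate 1) and set 2 (CONT replicate 3, ET replicates 2 and 3). The direction of 13 members turned when ET replicate 1 was left out, and for each of them the value without it is given below.

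Matrix message was most abundant in ET replicate 1. The 41 members summed to 1511, 1237 and 1309 TPM in CONT replicates 1 to 3 and to 3053, 1475 and 1017 TPM in ET replicates 1 to 3. ET replicate 1 thus held more matrix message than any other library, while ET replicate 2 lay inside the control range and ET replicate 3 below it. ET replicate 1 was the highest library for 31 of the 41 members, against 25.5% of all genes tested, and ET replicate 3 was the lowest for 18, against 25.4%. The 12 fibroblast markers outside the member list, among them Pdgfra, Tcf21 and the fibrillar collagens, ran alongside. They summed to 493.3 to 603.1 TPM in CONT and to 1603, 667.2 and 485.8 TPM in ET, and all 12 were highest in ET replicate 1. All 12 were higher in ET with all libraries and 3 of 12 without that library. The 5 smooth muscle markers had the same order at the top, with 394.6 TPM in ET replicate 1 against 52.8 to 111.5 elsewhere, and so had the 7 macrophage markers, with 304.1 TPM against 92.9 to 114.8 and all 7 highest there. The ratio of member to fibroblast marker TPM was 2.63, 2.51 and 2.17 in CONT and 1.91, 2.21 and 2.09 in ET, so it spanned a much narrower range than either sum. Most of the fibroblast sum came from Gsn (gelsolin), with 425.4 of 574.6 TPM in CONT replicate 1 and 1138 of 1603 in ET replicate 1. The ratio is therefore largely one of the members to Gsn. In bulk tissue, fewer cells of a type and less RNA per cell cannot be told apart, and the part of the marker cells in any member's level was not tested.

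**Figure D1:**
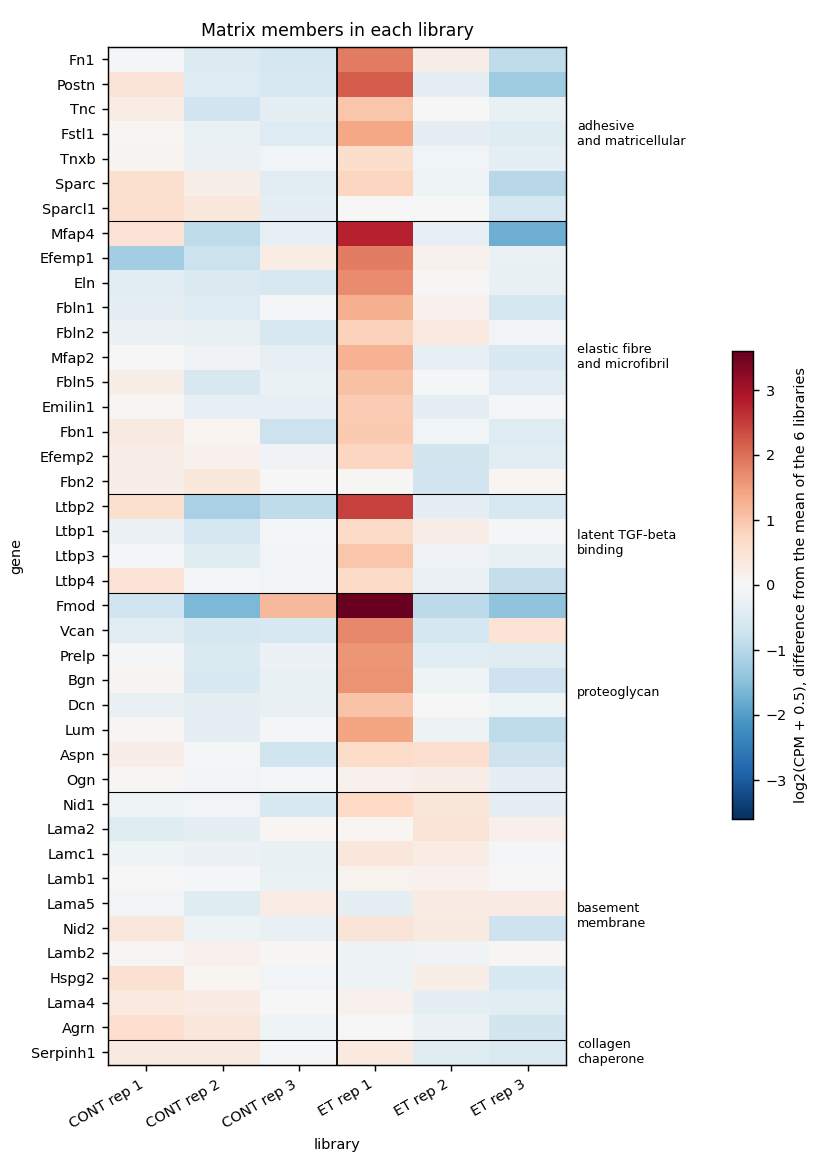
Heat map of the 41 members (rows, by role) in the 6 libraries (columns); colour is log2(CPM + 0.5) relative to the gene's own average over all libraries, red above and blue below. The column of ET replicate 1 is the reddest in the adhesive, elastic fibre, TGF-beta binding and proteoglycan roles, and it is the highest library for 31 of 41 members.

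ET was compared with CONT to ask which matrix messages differed after the ethanol diet and gavage. Of the 41 members 31 were higher and 10 lower in ET, with a median log2 fold change of 0.52, where 51.9% of all genes tested were higher and their median was 0.01. With Benjamini-Hochberg adjustment of edgeR's quasi-likelihood p-values over 15727 genes, 0 members passed at 0.05 (0% of all genes), and member adjusted p-values ran from 0.528 to 0.982. Unadjusted p-values were under 0.05 for 7 members (8.65% of all genes): Fbln2, Vcan, Eln, Ltbp1, Lamc1 and Lama2 on the higher side (4.19% of all genes) and Agrn on the lower (4.46%). DESeq2 also called 0 members, against 1.18% of all genes, with 11 at an unadjusted p under 0.05 (10.4% of all genes). In limma-voom 0 members passed and 4 had such a p (8.06% of all genes). Groups did not overlap for 7 of 41 members, a share close to the 15.2% of all genes. Those 7 were Dcn, Eln, Fbln2, Lama2, Lamb1 and Lamc1 above (6.89% of all genes) and Lamb2 below the controls (8.36%).

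Without ET replicate 1 the direction of the list turned. Then 18 of 41 members were higher in ET, against 48.8% of all genes, and the median was -0.11. Of the 41 members 8 then had an unadjusted p under 0.05 in edgeR (16.3% of all genes), 13 had groups without overlap (36.6% of all genes) and 0 passed with adjustment (0% of all genes). With the library set as a term in the edgeR fit of all 6 libraries, 12 members had an unadjusted p under 0.05 (9.60% of all genes) and 0 passed with adjustment. In set 1, where ET replicate 1 is the only ethanol library, 34 members were higher (48.3% of all genes) with a median log2 ratio of 1.04. Within set 2 there were 22 higher members (51.0% of all genes) and the median was 0.03. With ET replicate 1 left out, both remaining ethanol libraries belong to set 2, while CONT replicates 1 and 2 belong to set 1. Group and set are therefore partly mixed in every value given without that library. The fold changes with and without ET replicate 1 are plotted together in the chart of all 41 members.

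**Figure D2:**
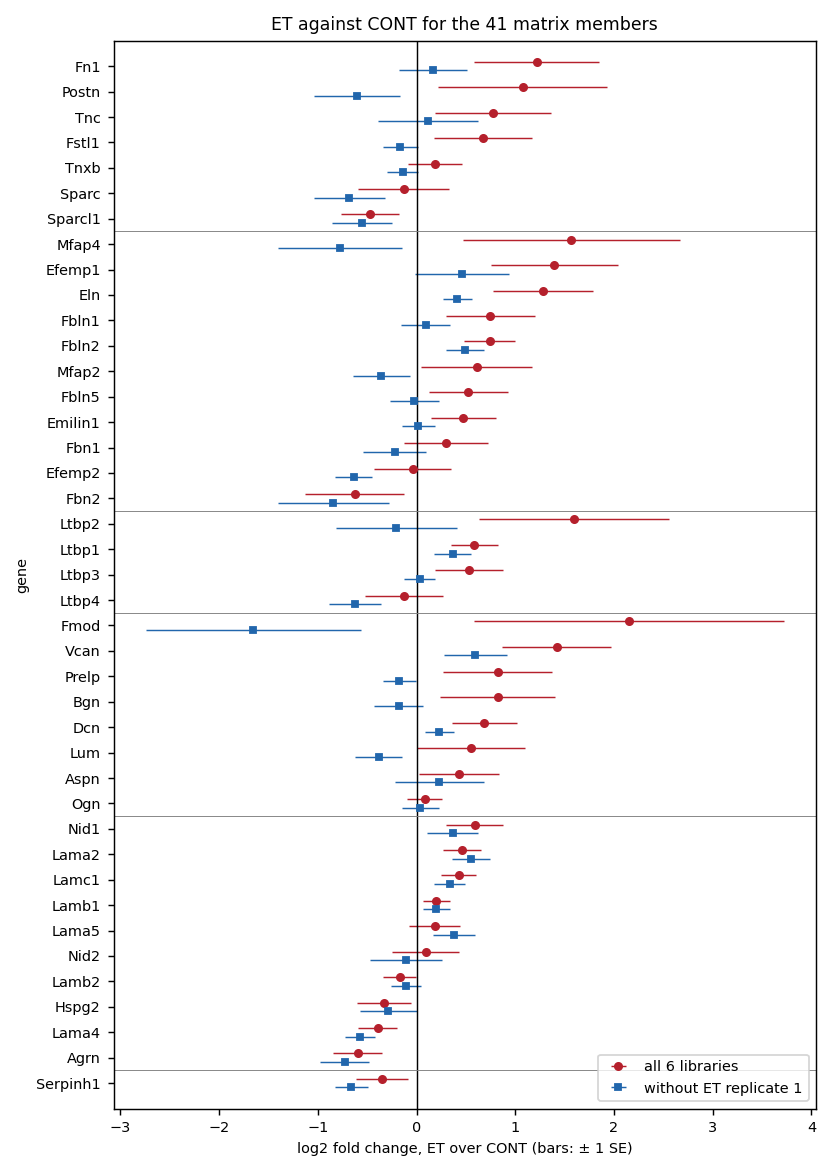
Log2 fold change of ET over CONT for each member, grouped by role, from the edgeR fit of all 6 libraries (circles) and without ET replicate 1 (squares), with bars of ± 1 SE. Circles lie right of 0 for 31 members and squares for 18, and the laminin chains Lama2, Lamb1 and Lamc1 keep nearly the same place in both.

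Adhesive and matricellular members were led by the SPARC family in level. Sparc, which binds collagen and calcium, had a mean of 122.8 TPM over the 6 libraries and Sparcl1, its relative also called hevin, 100.6 TPM, whereas Fn1 (fibronectin, the main adhesive glycoprotein) had 21.9, Postn (periostin) 22.2, Fstl1 (a follistatin-like glycoprotein) 21.6, Tnxb (tenascin X) 10.8 and Tnc (tenascin C) 0.182. Counts scaled by library size and TMM factors (CPM) are used from here on to compare libraries. Fn1 stood at 54.4, 40.4 and 37.0 CPM in CONT replicates 1 to 3 and at 208.7, 67.1 and 30.3 CPM in ET replicates 1 to 3. The ethanol libraries thus held both the highest and the lowest value of fibronectin, and the groups overlapped (log2 fold change 1.22 ± 0.63 SE, adjusted p 0.587 in edgeR, and 0.17 ± 0.34 without ET replicate 1). Sparc was at 339.1, 263.8 and 169.4 CPM in CONT and 387.6, 204.9 and 112.3 in ET, an overlap over nearly the whole range. Its log2 fold change was -0.13 ± 0.46. For Sparcl1 the controls had 390.5, 330.1 and 202.9 CPM and the ethanol libraries 250.1, 249.3 and 165.3. The top 2 values of Sparcl1 were both controls, ET replicate 1 was not raised, and the log2 fold change was -0.47 ± 0.29 (-0.53 in set 1 and 0.03 in set 2).

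The other 4 adhesive members had their highest value in ET replicate 1. Periostin, a marker of activated fibroblasts, averaged 24.9 ± 11.1 CPM (SD, n = 3) in CONT and 52.4 ± 63.0 in ET, and its log2 fold change went from 1.07 ± 0.85 to -0.61 ± 0.43 when ET replicate 1 was left out. For Fstl1 the values were 57.6 ± 11.2 and 91.8 ± 71.0 CPM (0.67 ± 0.50, and -0.16 ± 0.18 without it). Tnxb had 0.19 ± 0.27, and -0.14 ± 0.16 without ET replicate 1. Tnc was near the lower end of detection with 12 to 96 expected counts per library and had 0.77 ± 0.59. Of the 7 genes of this role 5 were higher in ET, 0 had an unadjusted p under 0.05, and 2 were higher without ET replicate 1.

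Elastic fibre genes included the member with the lowest p. Fbln2, fibulin 2, which links fibrillin, elastin and basement membrane proteins, was at 108.8, 104.8 and 83.2 CPM in CONT and 221.6, 158.9 and 116.6 in ET. All 3 ethanol libraries lay above all controls, with a log2 fold change of 0.74 ± 0.26 (adjusted p 0.528 in edgeR). Without ET replicate 1 Fbln2 had 0.49 ± 0.19, and the log2 ratios were 1.05 in set 1 and 0.73 in set 2. Because the groups did not overlap, the direction in the sets was fixed in advance, and leaving out a library could hardly turn it. In TPM the groups overlapped, with ET replicate 3 at 41.46 and CONT replicate 1 at 41.53. Eln, tropoelastin, the rubber-like core of the fibre, was at 27.8, 25.2 and 24.0 CPM in CONT and 120.2, 37.7 and 29.9 in ET. Here the controls were tightly grouped and the groups did not overlap, but ET replicate 1 was more than the other ethanol values put together (1.29 ± 0.51, adjusted p 0.560, and 0.41 ± 0.15 without it). Fbln1, fibulin 1, was at 72.8, 67.1 and 90.1 CPM in CONT and 224.3, 102.2 and 59.6 in ET, so that the ethanol group held the extremes (0.75 ± 0.45, and 0.09 ± 0.25 without ET replicate 1).

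The remaining 8 elastic fibre and microfibril genes mostly followed ET replicate 1. Its CPM was 8.93 times the median of the other 5 libraries for Mfap4 (microfibril-associated glycoprotein 4), 4.42 times for Efemp1 (fibulin 3), 3.51 for Mfap2 (a fibrillin-binding protein), 2.51 for Fbln5 (fibulin 5, needed to assemble elastin), 2.36 for Emilin1 (an elastin interface protein), 2.09 for Fbn1 (fibrillin 1, the backbone of the microfibril) and 1.93 for Efemp2 (fibulin 4). Fbn2, a fibrillin mainly of development, was barely detected, with 7 to 30 expected counts per library. Mfap2 was low as well, with 40 to 214. Of the 11 genes 9 were higher in ET and 5 without ET replicate 1. Without that library Mfap4 had a log2 fold change of -0.77 ± 0.63, Mfap2 of -0.36 ± 0.29 and Efemp2 of -0.64 ± 0.19, each below 0, as were Fbn1 with -0.22 ± 0.32 and Fbln5 with -0.02 ± 0.25, whereas Efemp1 had 0.46 ± 0.47. Efemp1 was unequal among the controls too, at 3.67, 5.24 and 11.2 CPM. The value of Fbn1 is uncertain, since 20.1% of its exon bases overlap an antisense gene. Smaller shares overlap one in 14 further members, among them 9.68% in Prelp, 9.34% in Ltbp2 and 8.45% in Nid2.

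Among latent TGF-beta binding proteins, which hold the inactive growth factor in the matrix, Ltbp4 dominated with a mean of 122.3 TPM, ahead of Ltbp3 (19.0), Ltbp1 (9.11) and Ltbp2 (1.76). Ltbp4 was at 469.3, 327.3 and 316.2 CPM in CONT and 543.4, 289.9 and 186.0 in ET, and the groups overlapped. Its log2 fold change was -0.13 ± 0.40, and without ET replicate 1 it was -0.62 ± 0.26, with both remaining ethanol libraries below all controls. Ltbp1 had 32.5, 24.6 and 36.0 CPM in CONT and 60.5, 43.8 and 35.3 in ET. Only ET replicate 3 reached down into its control range (0.58 ± 0.24, adjusted p 0.567 in edgeR, and 0.37 ± 0.19 without ET replicate 1). Ltbp3 had 42.4, 32.8 and 41.6 CPM in CONT and 90.4, 41.4 and 37.4 in ET, which left 0.03 ± 0.16 without ET replicate 1. Ltbp2, which does not bind the latent growth factor but sits on elastic fibres, was at 7.39, 1.83 and 2.28 CPM in CONT and 28.3, 3.59 and 3.03 in ET. ET replicate 1 and CONT replicate 1 were both high for Ltbp2, and the fold change turned from 1.60 ± 0.96 to -0.20 ± 0.61 without ET replicate 1.

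Proteoglycan members were all 8 higher in ET on average, and 4 of 8 were higher without ET replicate 1. Dcn (decorin, which binds collagen fibrils and TGF-beta) had the highest level of all members, a mean of 203.6 ± 22.1 TPM in CONT and 391.3 ± 232.6 in ET. In CPM it was at 366.4, 348.0 and 362.3 in CONT and 901.7, 441.7 and 391.3 in ET. The controls differed by only a few percent and every ethanol library lay above them, by a wide margin in ET replicate 1 and a narrow one in ET replicate 3, which lay among the controls when library totals replaced TMM factors. The log2 fold change of decorin was 0.69 ± 0.33 (adjusted p 0.583 in edgeR), and it was 0.23 ± 0.15 without ET replicate 1, 1.34 in set 1 and 0.20 in set 2. Bgn, biglycan, the closest relative of decorin and a ligand of innate immune receptors, was at 243.9, 157.6 and 190.0 CPM in CONT and 702.1, 206.2 and 137.8 in ET. Unlike decorin, biglycan had an ethanol library below all controls (0.82 ± 0.58, and -0.18 ± 0.25 without ET replicate 1). Vcan, versican, a large hyaluronan-binding proteoglycan of valves and of the developing heart, was at 9.11, 7.60 and 7.84 CPM in CONT and 41.1, 7.53 and 16.99 in ET. Both ET replicates 1 and 3 were above the controls and ET replicate 2 just below them (1.42 ± 0.55, adjusted p 0.556 in edgeR, and 0.59 ± 0.32 without ET replicate 1).

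Fmod, fibromodulin, a collagen-binding proteoglycan abundant in tendon and valve, had the widest spread of any member. It was at 1.48, 0.562 and 6.81 CPM in CONT and at 37.6, 1.18 and 0.683 in ET, a choice made after its values were seen. The 2 libraries with the most fibromodulin were ET replicate 1, at 32.0 times the median of the other 5, and CONT replicate 3, the same 2 that held the most atrial and mesothelial marker RNA. Its log2 fold change was 2.15 ± 1.57 with all libraries and -1.66 ± 1.09 without ET replicate 1. Prelp, a proteoglycan that links basement membrane and collagen, was at 4.03 times the median of the others in ET replicate 1, and Lum (lumican, a regulator of collagen fibril width) at 3.03 times. Without that library they had -0.17 ± 0.16 and -0.38 ± 0.24. Ogn, osteoglycin or mimecan, was flat, with 55.9 ± 3.18 CPM in CONT and 59.2 ± 11.9 in ET and ET replicate 1 at 1.15 times the others. Aspn, asporin, had 0.43 ± 0.41.

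The basement membrane was the role least marked by ET replicate 1. That library was the highest for 3 of its 10 genes and stood at a median of 1.10 times the other 5, compared with 3.36 times for the proteoglycans, 3.28 for the adhesive members and 2.51 for the elastic fibre genes. Perlecan (Hspg2, mean 121.0 TPM), a heparan sulphate proteoglycan, and the laminin beta 2 chain (Lamb2, 97.4 TPM) were the most abundant, followed by the laminin alpha 5 (54.2 TPM) and gamma 1 chains (40.2 TPM). Laminins are trimers of an alpha, a beta and a gamma chain. Alpha 2 with beta 1 or beta 2 and gamma 1 is the form of muscle fibres, and alpha 4 and alpha 5 form the laminins of vessels.

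The 3 chains of the muscle trimer laminin-211, alpha 2, beta 1 and gamma 1, were among the members without overlap between the groups in CPM, as were 15.2% of all genes. Lamb2, the other beta chain of the muscle form, had a mean of 97.4 TPM against 14.2 for Lamb1 and was on the lower side in ET. Whether the trimer itself changed was not tested. With library totals in place of TMM factors Lama2 and Lamb1 overlapped and Lamc1 did not, and in TPM all 3 overlapped. Lama2 was at 51.6, 55.9 and 73.2 CPM in CONT and 73.5, 95.9 and 79.2 in ET. The margin between CONT replicate 3 and ET replicate 1 was thin, and ET replicate 2, not ET replicate 1, was highest (log2 fold change 0.46 ± 0.19, adjusted p 0.571 in edgeR). Lamb1 was at 73.8, 72.0 and 63.8 CPM in CONT and 81.9, 83.5 and 75.4 in ET, a small difference of 0.20 ± 0.14 (adjusted p 0.651 in edgeR). For Lamc1 the controls had 121.4, 117.1 and 113.1 CPM and the ethanol libraries 179.4, 164.2 and 128.7, with a log2 fold change of 0.43 ± 0.17 (adjusted p 0.567 in edgeR). Without ET replicate 1 the values were 0.55 ± 0.19, 0.20 ± 0.14 and 0.34 ± 0.16 for Lama2, Lamb1 and Lamc1. In set 1 they were 0.45, 0.17 and 0.59, and in set 2 0.26, 0.32 and 0.37. Values above 0 in both sets follow from the groups not overlapping, so they add no further evidence. Nid1, nidogen 1, which ties laminin gamma 1 to collagen IV, had 92.5 ± 14.7 CPM in CONT and 139.1 ± 48.7 in ET (0.59 ± 0.29, with 0.85 and 0.64 in the sets). Its relative Nid2 had 0.09 ± 0.34, and -0.11 ± 0.36 without ET replicate 1.

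The remaining basement membrane genes had lower means in ET, apart from Lama5. Lamb2 was at 325.8, 353.1 and 326.6 CPM in CONT and 276.6, 290.4 and 325.5 in ET. All ethanol values of Lamb2 were below all controls, but ET replicate 3 only by a fraction of a CPM, and with RLE factors or library totals the groups overlapped (-0.17 ± 0.16). Hspg2 was at 682.8, 493.7 and 435.0 CPM in CONT and 409.3, 552.1 and 319.6 in ET, with overlap (-0.33 ± 0.28, and -0.52 and 0.003 in the sets). Agrn, agrin, a heparan sulphate proteoglycan that binds dystroglycan, had 85.8 ± 21.8 CPM in CONT and 56.7 ± 12.4 in ET (-0.60 ± 0.25, adjusted p 0.572 in edgeR, and -0.53 and -0.27 in the sets). The laminin alpha 4 chain had 73.4 ± 9.61 CPM in CONT and 55.8 ± 12.3 in ET (-0.39 ± 0.20, and -0.17 and -0.36 in the sets). Lama5 had 0.18 ± 0.26, with CONT replicates 1 and 2 and ET replicate 1 low and the others high. Without ET replicate 1 Lama5 had 0.38 ± 0.22, with both remaining ethanol libraries above all controls, and it had -0.08 and 0.05 in the sets. Of 8 endothelial markers 7 were lower in ET, and the 8 summed to 1343, 1281 and 830.4 TPM in CONT and 1203, 1091 and 640.0 in ET. Most of this sum came from Fabp4, with 951.5 of 1343 TPM in CONT replicate 1 and 441.0 of 640.0 in ET replicate 3. The direction of the 8 markers differed between the sets. The median log2 ratio was -0.49 with 1 of 8 higher in set 1, and 0.20 with 6 of 8 higher in set 2. The part of endothelial RNA in Lama4, Agrn and Hspg2 was not tested.

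**Figure D3:**
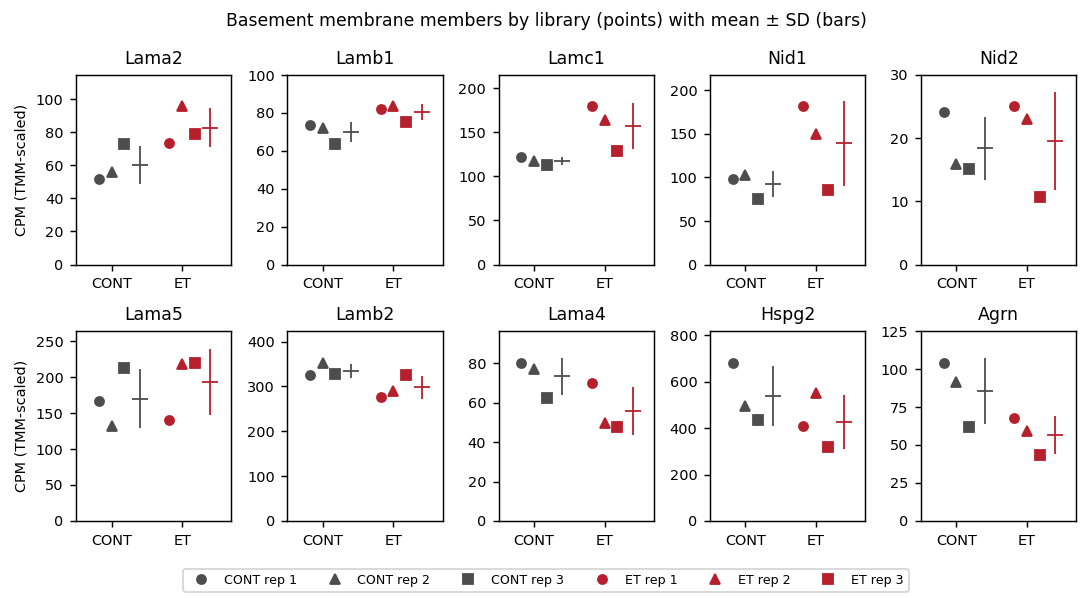
CPM of the 10 basement membrane genes in each library (points, shapes by replicate) with the group mean ± SD (n = 3) beside them; each y axis starts at 0. Lama2, Lamb1 and Lamc1 have all ethanol points above all control points, and Lama4, Hspg2 and Agrn have lower ethanol means.

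Promoters are shown for a pair of the laminin chains that were higher in ET without overlap, for Lamb2, the chain on the lower side, and for Fmod, the member most raised in ET replicate 1. The sequences are from RefSeq on the GRCm38.p6 build, 250 bases before to 50 after the start, written 5′ to 3′ along the gene. Capitals mark the SMAD element CAGAC, through which TGF-beta signalling can reach a promoter, or its complement on the other strand.
Lama2 promoter, chr10:27616893-27617192, minus strand: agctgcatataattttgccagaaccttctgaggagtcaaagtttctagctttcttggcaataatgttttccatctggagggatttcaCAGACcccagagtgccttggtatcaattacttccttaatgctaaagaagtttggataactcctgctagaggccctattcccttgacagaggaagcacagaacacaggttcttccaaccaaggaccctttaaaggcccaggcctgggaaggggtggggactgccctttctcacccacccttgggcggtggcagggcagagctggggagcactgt
Lamb1 promoter, chr12:31265043-31265342, plus strand: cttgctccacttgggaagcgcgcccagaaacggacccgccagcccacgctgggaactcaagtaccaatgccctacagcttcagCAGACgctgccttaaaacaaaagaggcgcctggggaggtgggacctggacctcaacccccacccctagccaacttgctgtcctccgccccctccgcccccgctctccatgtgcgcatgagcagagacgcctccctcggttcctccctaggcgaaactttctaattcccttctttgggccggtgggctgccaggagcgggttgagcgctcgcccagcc
Lamb2 promoter, chr9:108479612-108479911, plus strand: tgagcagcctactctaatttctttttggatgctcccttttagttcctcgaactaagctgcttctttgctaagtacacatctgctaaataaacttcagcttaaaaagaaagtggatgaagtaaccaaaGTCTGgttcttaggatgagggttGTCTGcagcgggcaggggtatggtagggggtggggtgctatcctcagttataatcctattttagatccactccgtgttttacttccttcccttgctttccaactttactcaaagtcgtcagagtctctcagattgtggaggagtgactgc
Fmod promoter, chr1:134037004-134037303, plus strand: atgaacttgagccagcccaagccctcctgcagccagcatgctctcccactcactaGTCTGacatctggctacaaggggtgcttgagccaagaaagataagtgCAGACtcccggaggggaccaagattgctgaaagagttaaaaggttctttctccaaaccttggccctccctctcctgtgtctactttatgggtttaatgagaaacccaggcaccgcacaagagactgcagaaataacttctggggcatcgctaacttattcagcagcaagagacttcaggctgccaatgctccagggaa
Each of these windows holds the element, Lama2 and Lamb1 once each and Lamb2 and Fmod at 2 places each. RefSeq promoters were found for 31 members (42 windows), and 24 of the 42 windows hold CAGAC on either strand, against 49.6% of 32851 promoters of the same length. The TATA box letters TATAAA stand in 5 member windows (13.6% of all promoters), the AP-1 letters TGANTCA in 3 (7.81%) and the TEAD letters GGAATG in 3 (14.7%), with both strands searched. The windows of Lama2, Lamb1, Lamb2 and Fmod hold none of the last 3 motifs. These matches describe letters and not bound factors. The RefSeq starts of Lama2, Lamb1 and Lamb2 used here lie inside the GENCODE genes, downstream of their outermost starts, and farthest so for Lama2.

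Serpinh1, the collagen chaperone HSP47 of the endoplasmic reticulum, which is made by collagen-secreting cells, stood only 1.32 times higher in ET replicate 1 than the median of the others. It was at 139.0, 139.1 and 108.0 CPM in CONT and 142.5, 82.7 and 78.3 in ET. ET replicate 1 was just above the upper controls and the other ethanol libraries lay below all controls (-0.35 ± 0.27, adjusted p 0.687 in edgeR, and -0.66 ± 0.16 without ET replicate 1). Within the sets the log2 ratio was 0.04 and -0.42. When CONT replicate 3 and ET replicate 1 were left out together, 4 members passed edgeR's adjusted threshold, where 5.27% of all genes did. Serpinh1 was lower (-0.77, adjusted p 0.0307), as were Agrn (-0.91, adjusted p 0.0424) and Lama4 (-0.67, adjusted p 0.0359), and Lama2 was higher (0.73, adjusted p 0.0432). The remaining control and ethanol libraries then belong to different library sets, so group and set cannot be told apart there.

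Genes around the members were read from 3 further lists. Of 58 other matrix glycoproteins and proteoglycans 47 were tested, with 35 higher in ET, 0 passing and 12 at an unadjusted p under 0.05, of which 10 were higher. Over all genes 51.9% were higher and 8.65% had such a p, which also holds as the background of the other lists. Their median log2 fold change of 0.62 became -0.02 without ET replicate 1. Spock2, a testican proteoglycan, had 24.5 ± 11.4 CPM in CONT and 66.1 ± 7.82 in ET (1.43 ± 0.37, and 1.36 without ET replicate 1), and Reln, reelin, had 1.05 ± 0.29. Among 28 matrix receptors 23 were higher, 0 passed and 3 had an unadjusted p under 0.05, all higher. Itgb3, the integrin beta 3 subunit of the vitronectin receptor, had 1.90 ± 0.485 CPM in CONT and 5.13 ± 2.41 in ET (1.43 ± 0.38), and Gpc6, glypican 6, had 1.38 ± 0.41. Their adjusted p-values in edgeR were 0.478 and 0.515. Of 20 TGF-beta ligands, receptors and responsive genes 17 were higher, 0 passed and 4 had an unadjusted p under 0.05. Ccn2, a matricellular target of TGF-beta and YAP also called CTGF, was at 55.3, 36.6 and 70.2 CPM in CONT and 332.9, 83.4 and 147.7 in ET. All ethanol values of Ccn2 were above all controls (1.80 ± 0.51, adjusted p 0.5004 in edgeR, and 1.11 without ET replicate 1). Tgfbr2, the type II receptor, had 44.5 ± 5.36 and 71.6 ± 18.4 CPM (0.69 ± 0.21). The ligands Tgfb1 (-0.11 ± 0.30) and Tgfb2 (-0.05 ± 0.29) were level, and Tgfb3 had 0.64 ± 0.44 with all libraries and -0.05 without ET replicate 1. These medians stood at 0.37 for the receptors and 0.29 for the TGF-beta list, and at 0.03 and 0.01 without ET replicate 1.

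**Figure D4:**
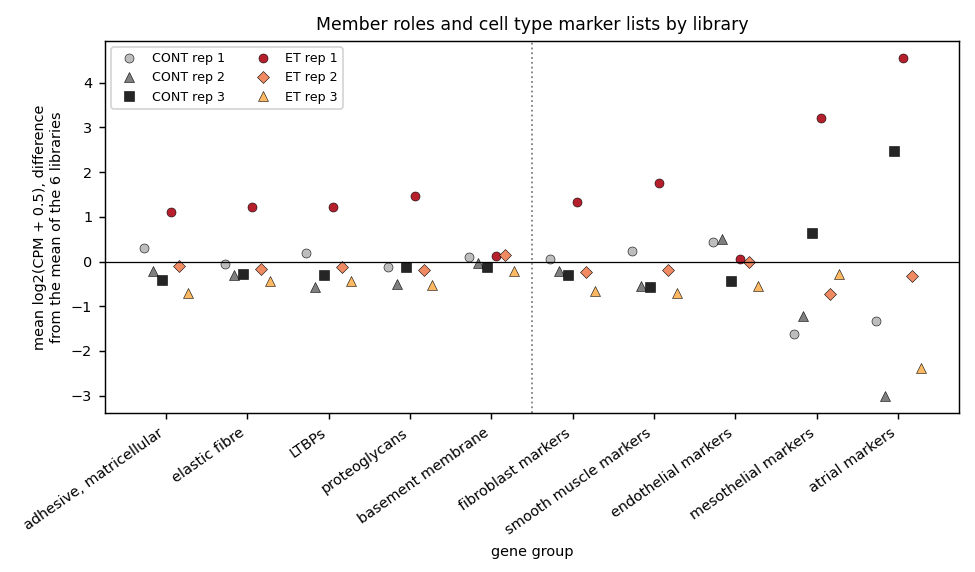
Mean log2(CPM + 0.5) of each member role (left of the dotted line) and cell type marker list (right) in each library, relative to the average over all 6. ET replicate 1 stands above the rest in 4 of the roles and in the fibroblast, smooth muscle, mesothelial and atrial lists, and within the pack for the basement membrane and endothelial genes.

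The estimated length of the transcripts behind each gene gave a further readout. The effective length is the length, in bases, by which the authors' estimate scaled each gene's counts to FPKM, recovered here from counts and FPKM. It depends on the isoforms that were assigned reads, but need not equal their full length. Among 28 members with at least 500 counts in every library, 7 had longer effective lengths in all ET than in all CONT libraries, where 5.20% of 4792 such genes did, and 4 had shorter ones (7.62% of such genes). These counts use unrounded lengths. Of the 4, Lum and Ogn overlapped once lengths were rounded to whole bases, which leaves Dcn and Sparc. The 7 were Eln, Emilin1, Fbln2, Lama2, Lamc1, Ltbp1 and Ltbp4. The lengths of Lamc1 were 3085, 3034 and 3428 bases in CONT and 3570, 4083 and 3807 in ET, and those of Lama2 were 3638, 3694 and 3725 against 4006, 4181 and 4201. For Ltbp4 the lengths were 2945, 2643 and 2801 bases against 3118, 3360 and 3109. The shorter ones differed little, with means of 1671 and 1650 bases in Dcn and 2069 and 2045 in Sparc. A longer effective length lowers a gene's TPM for the same count, and on the log2(TPM + 1) scale only Dcn, Eln and Nid1 had groups without overlap. The source of these lengths was not tested.

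On the GRCm38 build (GENCODE vM21), the 7 members without overlap between groups are protein-coding genes, and each value covers all exons. Dcn (ENSMUSG00000019929) lies on chromosome 10 at 97479609 to 97518143 on the plus strand, and Lama2 (ENSMUSG00000019899) on the same chromosome at 26980036 to 27619758 on the minus strand. Eln (ENSMUSG00000029675) is on chromosome 5 at 134702593 to 134747323 (minus) and Fbln2 (ENSMUSG00000064080) on chromosome 6 at 91212455 to 91272540 (plus). Lamb1 (ENSMUSG00000002900) is on chromosome 12 at 31265234 to 31329644 (plus), Lamc1 (ENSMUSG00000026478) on chromosome 1 at 153218922 to 153332786 (minus) and Lamb2 (ENSMUSG00000052911) on chromosome 9 at 108479736 to 108490530 (plus). Of their exon bases 3.86% in Lama2 and 3.30% in Eln overlap an antisense gene.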

How the data were processed

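Left ventricular RNA of 3 CONT and 3 ET samples was sequenced. The submitters' processing notes name STAR 2.7.0f, RSEM 1.2.31 and mm10. For the annotation release and strand setting, none was given in the sources used here. The deposited table holds expected counts, which are estimated counts and need not be whole (65.7% to 67.3% of nonzero values were whole within 0.005). They also deposited TPM and FPKM values per library, per the file headers. Effective lengths were computed by dividing expected counts by FPKM and library total. Counts were rounded to whole numbers, filtered with filterByExpr (minimum count 10, minimum total 15; 15727 of 55487 genes kept), scaled with TMM factors (0.920 to 1.19) and tested two-sided with edgeR (robust quasi-likelihood fit, no covariates), with Benjamini-Hochberg adjustment at 0.05. Standard errors are the log2 fold change divided by the square root of F. The common biological coefficient of variation was 0.297.

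Library sets are the division into 3 and 3 with the most genes of non-overlapping effective length (1408 of 4792 genes with at least 500 counts in each library, against 614 between ET and CONT). Alternatives were RLE factors, library totals, no filter, a stricter filter (CPM 1 or more in 3 libraries), limma-voom, DESeq2, limma on log2(TPM + 1) and log2(TPM + 0.1) for a mean TPM of at least 0.5, a library set term, and leaving out libraries. The tests were checked on simulated data. Tools were Python 3.11.15 with matplotlib 3.10.9 and pandas 2.3.3, and R 4.3.3 with DESeq2 1.42.0, limma 3.58.1 and edgeR 4.0.16. Values in every library are given for the 2 members of each role with the highest mean TPM, the 2 with the lowest p and all without overlap, and at most 2 genes by lowest p of each other list; Fmod, Pdgfra, Tcf21 and the TGF-beta ligands were added after their values were seen. The members, lists and this rule were chosen with earlier results of these data known.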

Additional observations from a re-analysis of the deposited data

How the results depend on the processing

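No paired analysis was possible because replicates were numbered by accession, so a number shared by CONT and ET carries no pairing. Of 15727 genes 0 passed in edgeR and 185 with DESeq2. Other settings tested other gene sets: 1 and 2 of 14114 passed on log2(TPM + 1) and log2(TPM + 0.1), and 828 of 15714 without both CONT replicate 3 and ET replicate 1; leaving out single libraries gave 0 to 0. Members passing numbered 0 in all settings but the last, with 4 (0 to 0 without single libraries). Members at an unadjusted p under 0.05 numbered 7 with all libraries in edgeR (8.65% of all genes) and 11 with DESeq2 (10.4%). DESeq2 gave no p for 2 members, Ltbp2 and Fmod. There were 4 with limma-voom (8.06% of all genes) and 1 and 1 on the TPM scales (9.82% and 10.0%). The count was 12 with the library set term (9.60% of all genes), 13 with both libraries left out (27.7%) and 0 to 11 without single libraries (3.48% to 16.3%). Non-overlapping members, 7 with all libraries in edgeR (15.2% of all genes), numbered 3 with library totals (14.9%) and 3 and 3 on the TPM scales (16.2% each). They numbered 20 with both libraries left out (60.7% of all genes) and 6 to 13 without single libraries (18.8% to 36.6%). Members higher in ET, 31 with all libraries in edgeR, numbered 17 with both libraries left out and 18 to 34 without single libraries, and the median log2 fold change of 0.52 became -0.13 and ranged from -0.11 to 0.75. Among single libraries left out, the lowest count of higher members and the lowest median came without ET replicate 1, and the lowest count at an unadjusted p under 0.05 without CONT replicate 2.

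Of 19 members given in every library, 15 kept their direction in all settings. These 19 were chosen partly by low p and by groups without overlap in the same data, so this count does not describe all 41 members. Of all 41, 31 were higher in ET with all libraries in edgeR and 18 without ET replicate 1. Bgn and Ltbp2 turned to -0.20 and -0.47 with both libraries left out and to -0.18 and -0.20 without ET replicate 1; without single libraries they reached 1.198 and 2.5. Ltbp4 and Sparc, near 0 with all libraries in edgeR, had 0.048 and 0.056 with library totals, 0.017 and 0.13 with the library set term, 0.08 and 0.12 without CONT replicate 1 and 0.16 and 0.20 without ET replicate 3, and -0.62 and -0.68 without ET replicate 1. With library totals the median of all genes moved from 0.01 to 0.12, and 65.0% of all genes and 34 of 41 members were then higher. Depth limited Fbn2, Tnc, Mfap2 and Fmod, with at most 30, 50, 78 and 230 expected counts outside ET replicate 1.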
